A study of Ambystoma mexicanum with 12 samples.

Results

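Axolotl spinal cords that had received a microRNA inhibitor were compared 4 days post-injury (4 dpi) and without injury. The comparison set 3 libraries of 4 dpi inhibitor cords (numbers 5, 6 and 7) against 3 libraries of uninjured inhibitor cords (numbers 5, 6 and 7), chosen by their labels, which is 6 of the 12 libraries of the series. The animals (Ambystoma mexicanum, 2 to 3 cm long) had miR-200 inhibitor injected into the central canal. The study's methods describe this agent as an antisense inhibitor of miR-200a and mention electroporation for tissue collected for RNA. In the 4 dpi group part of the cord was removed straight after the injection and the injured area was collected 4 days later. The time at which uninjured cords were collected after the injection is not given in the sources used here. By the labels, each library was a pool of tissue from 10 animals. The other 6 libraries, 3 of 4 dpi control and 3 of uninjured control cords, came from animals given a control inhibitor in the same way. They served to estimate the spread and to show the injury change without the miR-200a inhibitor. The p-values below measure the spread between pools, taken for each gene over all 4 groups together. Replicates correlated least in uninjured control cords (r = 0.820 to 0.908). A gene that is steady within both inhibitor groups can therefore fail to pass, and not passing does not show that it was unchanged.

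miR-200a is a small RNA of the miR-200 family, which lowers the level of its target messenger RNAs and is best known for holding epithelial cells in their state by repressing ZEB transcription factors. The axolotl spinal cord regrows after injury from ependymoglia, the stem cells that line the central canal and express SOX2 and GFAP. A wound in vertebrates also draws in neutrophils and macrophages, which clear debris with lysosomal enzymes and release cytokines, while surrounding cells switch on immediate early genes such as FOS and JUN.

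Expression was given as TPM, the number of transcripts of a gene among 1e+06 transcripts of the library. The unit corrects for transcript length and holds no count of reads, so how deeply each library was sequenced is unknown. Genes carry human symbols, so members of families such as C-type lectins, carboxylesterases or HSP70 genes may stand for other axolotl copies. Of 15091 genes, 14764 reached at least 0.5 TPM in 3 of the 12 libraries and were tested with limma on log2(TPM + 0.5). On this scale the fold change of a weakly expressed gene is understated. Calls of higher or lower required a Benjamini-Hochberg adjusted p below 0.05 together with a log2 fold change of more than 1 in size.

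The libraries held the genes that mark the labelled tissue. SOX2 lay at 26.3, 20.4 and 21.1 TPM at 4 dpi and 17.9, 26.8 and 22.0 TPM without injury under the inhibitor. No ependymoglial or myelin gene that was tested was listed at 0 throughout a group. They also held other tissues. Summed TPM of 40 skeletal muscle genes were 13889 to 16017 at 4 dpi and 12216 to 21274 in uninjured inhibitor libraries, with PAX3 at 0 in all 6. miR-200a itself was not measured in these libraries. The groups also differed as libraries. Genes at 0 TPM numbered 769 to 799 in 4 dpi inhibitor, 823 to 1399 in uninjured inhibitor, 511 to 737 in 4 dpi control and 675 to 776 in uninjured control libraries. Uninjured inhibitor library 6, with 823, stood apart from libraries 5 and 7, with 1170 and 1399. Replicates correlated across genes at r = 0.972 to 0.978 at 4 dpi and 0.953 to 0.976 without injury under the inhibitor, at 0.927 to 0.975 in 4 dpi controls and at 0.820 to 0.908 in uninjured controls.

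With injury under the inhibitor, transcripts of several genes known from phagocytes and of several lysosomal genes rose. So did those of secreted signals such as IL11, LEP and HGF, and of stress genes such as HMOX1 and RRAD. In pooled tissue, the cells that held these transcripts were not identified. The transcripts of PTGDS, PPY and PRDX2 fell, and those of PLA2G2E were listed above 0 only in uninjured inhibitor cords. In all, 60 genes were called higher and 4 lower of 14764 tested (0.406% and 0.0271%). At an unadjusted p under 0.05, 2149 genes were higher (14.6%) and 453 lower (3.07%). In 4244 genes (28.7%) all 4 dpi inhibitor libraries lay above all uninjured inhibitor libraries, and in 1344 (9.1%) all lay below. The median log2 fold change of all genes was 0.26. Median-of-ratios scaling of the libraries moved it by -0.23, and after it 113 genes were called higher (0.765%) and 71 lower (0.481%), so the higher share of calls was 61.4% there and 93.8% with TPM as deposited. Of the 64 calls, 50 were also made after scaling. Among 31 lysosomal genes, 4 were called higher with TPM as deposited and 1 after scaling.

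**Figure D1:**
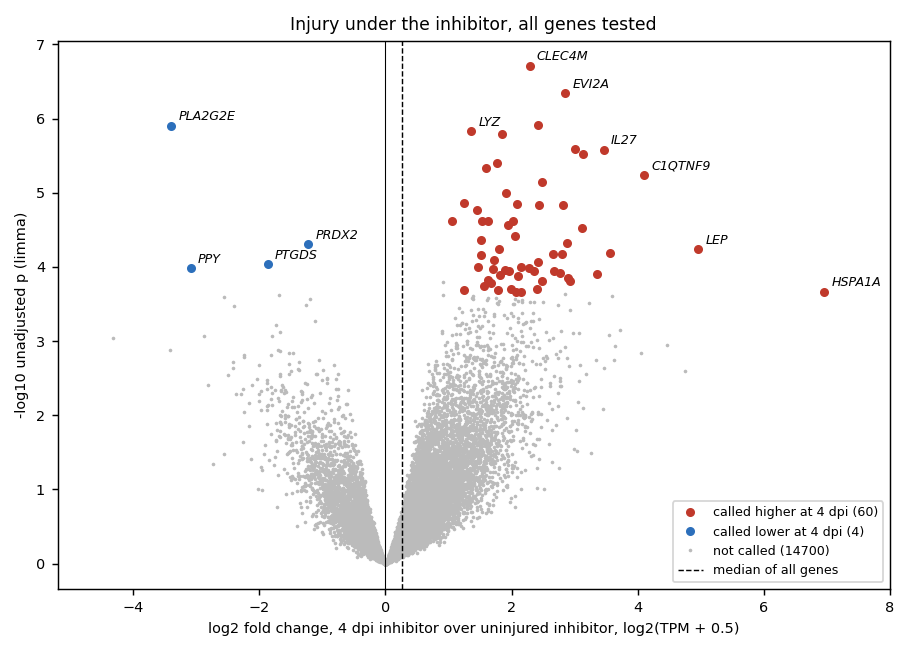
Each point is 1 of 14764 genes, with its log2 fold change (4 dpi inhibitor over uninjured inhibitor) on the x axis and -log10 of its unadjusted limma p on the y axis. The fitted changes of the 60 genes called higher (red) reach from 1.06 to 6.96, the 4 called lower (blue) from -1.22 to -3.40, and the dashed line marks the median of all genes at 0.26.

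The number of calls depended on single libraries. It was 21, 8 and 14 without 4 dpi inhibitor library 5, 6 or 7, and 16, 462 and 10 without uninjured inhibitor library 5, 6 or 7. It was 27 without 4 dpi control library 6, and 241 and 411 without uninjured control library 1 or S2, whose title has no number. CD53, CLEC4M, EVI2A, LYZ, PLA2G2E, RRAD and SRGN kept their call whichever of the 12 libraries was left out, and the other 57 lost it without at least 1 of them. PLA2G2E had reached the expression filter only through the uninjured inhibitor libraries, where it was high, and the filter was not applied again. Its place among these genes is therefore no support for its call. A fit of only the 6 libraries compared called 608 genes (458 higher, 150 lower), among them 60 of the 64.

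Genes of immune cells formed the most numerous group. Of the 60 genes called higher, sorted by known role after their values were seen, 25 encode proteins of immune cells or their receptors, with log2 fold changes between 1.36 and 2.89. LYZ, which encodes lysozyme, lay at 1609.6, 1744 and 1906 TPM at 4 dpi, against 715, 614 and 718 TPM in uninjured inhibitor cords (log2 fold change 1.36, SE 0.16, limma adjusted p = 0.00396). CYBB, the catalytic subunit of the phagocyte oxidase, had 129.6, 199 and 166 TPM at 4 dpi and 48.2, 42.6 and 52.3 TPM without injury (log2 fold change 1.76, SE 0.23, limma adjusted p = 0.00591). PLBD1, a phospholipase of granulocytes, had 129, 148 and 148 TPM at 4 dpi and 63.4, 45.0 and 41.8 TPM without injury (log2 fold change 1.51, SE 0.26, limma adjusted p = 0.0288). In each of the 3 genes the libraries of a group lay close together and the groups did not overlap. CD53, a tetraspanin of leukocytes, had 108, 97.1 and 125 TPM at 4 dpi, against 20.3, 29.4 and 13.6 TPM without injury (log2 fold change 2.42, SE 0.28, limma adjusted p = 0.00396). LCP1, the actin bundler L-plastin of blood cells, had 81.2, 92.1 and 78.9 TPM at 4 dpi and 27.2, 30.6 and 25.1 TPM without injury (log2 fold change 1.59, SE 0.21, limma adjusted p = 0.00620). After scaling 19 of the 25 were still called, and CST7, CXCR1, LYZ, MEFV, MILR1 and SAMSN1 were not. LYZ then stood at a log2 fold change of 1.09 and a limma adjusted p of 0.0856.

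**Figure D2:**
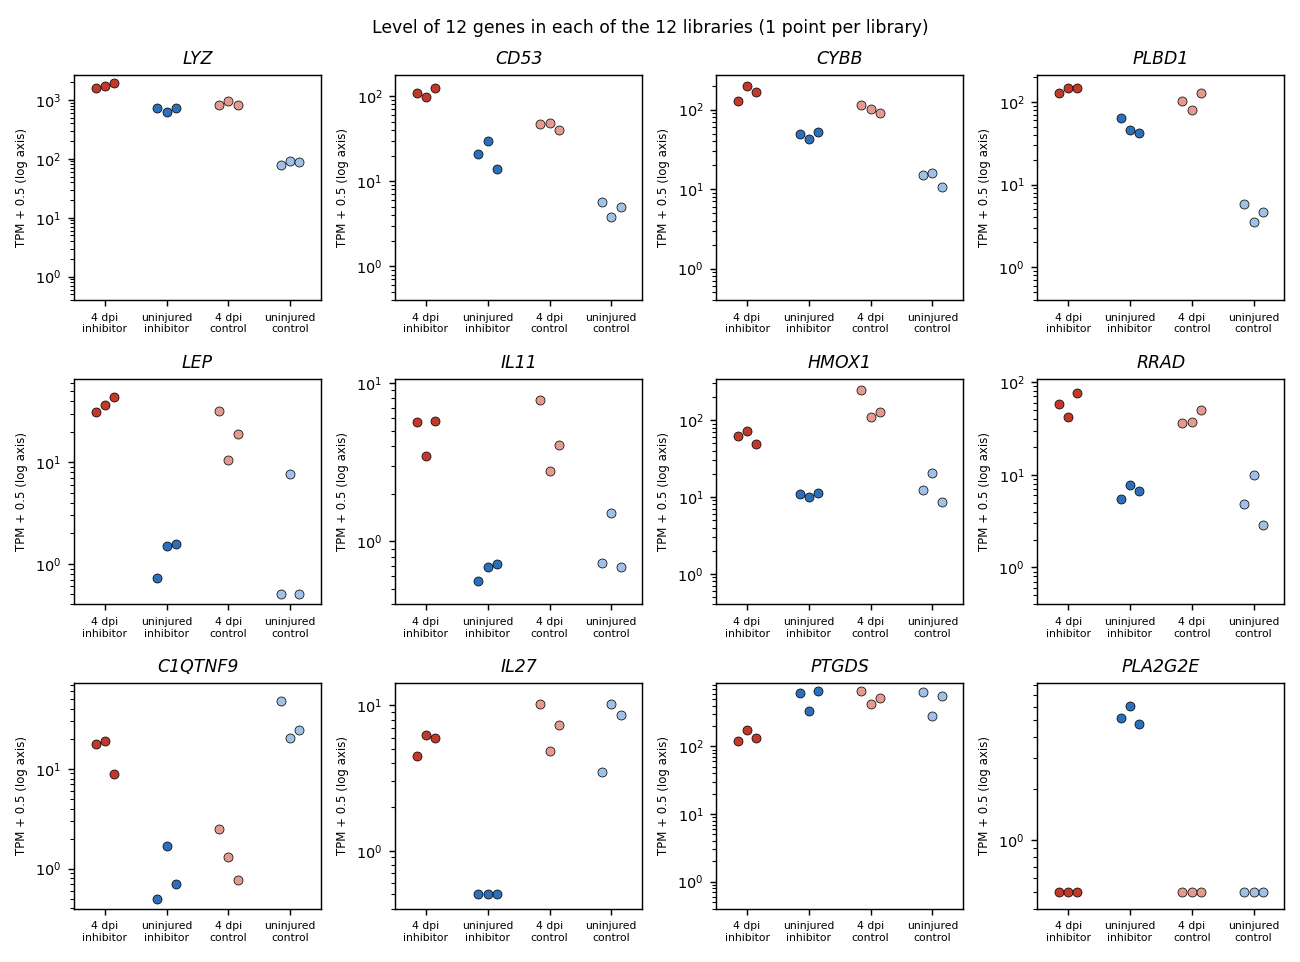
TPM + 0.5 of 12 genes on log axes, 1 point per library, in 4 dpi inhibitor (red), uninjured inhibitor (blue), 4 dpi control (light red) and uninjured control cords (light blue). LYZ, CD53, CYBB and PLBD1 lie higher at 4 dpi than without injury under both treatments, IL27 lies at 0 TPM in the uninjured inhibitor libraries alone, and PLA2G2E lies above 0 in those alone.

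Regulators and receptors of myeloid cells rose with them. SPI1, the transcription factor PU.1 of myeloid cells, had 15.4, 19.5 and 18.8 TPM at 4 dpi and 4.74, 5.82 and 3.76 TPM without injury (log2 fold change 1.82, SE 0.34, limma adjusted p = 0.0380). The receptor C5AR1, which binds the complement fragment C5a, had 38.5, 51.8 and 43.0 TPM at 4 dpi and 9.77, 14.5 and 9.56 TPM without injury (log2 fold change 1.95, SE 0.31, limma adjusted p = 0.0167). Neither gene overlapped between the groups. CXCR1, a receptor for interleukin-8 on neutrophils, had 32.2, 43.8 and 40.3 TPM at 4 dpi and 6.51, 7.88 and 6.95 TPM without injury (log2 fold change 2.36, SE 0.43, limma adjusted p = 0.0361). EVI2A, a membrane protein of blood cells, had 77.8, 68.0 and 77.1 TPM at 4 dpi, against 8.32, 14.5 and 7.91 TPM without injury (log2 fold change 2.85, SE 0.31, limma adjusted p = 0.00338). PRAM1, an adaptor of myeloid cells, had 7.80, 10.4 and 6.90 TPM at 4 dpi and 0.498, 1.46 and 0.340 TPM without injury (log2 fold change 2.89, SE 0.54, limma adjusted p = 0.0396). Of the 3, EVI2A had the smallest standard error relative to its change.

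Lectin-type receptors were a further part of this group. CLEC4M, named for a human C-type lectin that binds mannose, had 75.2, 75.9 and 85.3 TPM at 4 dpi and 17.1, 17.5 and 12.9 TPM without injury (log2 fold change 2.29, SE 0.23, limma adjusted p = 0.00285), the lowest p-value of the comparison. CLEC4E, the macrophage receptor Mincle, had 51.5, 44.9 and 67.0 TPM at 4 dpi and 13.9, 7.42 and 8.26 TPM without injury (log2 fold change 2.44, SE 0.36, limma adjusted p = 0.0121). Neither overlapped between groups. SIGLEC14, a sialic acid receptor, had 5.38, 0.971 and 4.01 TPM at 4 dpi and was listed at 0 in all uninjured inhibitor and all uninjured control libraries, so no fold is given. CLEC4G and KLRF2 were called as well, with log2 fold changes of 2.42 and 2.66. The other called genes of immune cells were SRGN, CST7, SAMSN1, IGSF6, MS4A4A, MILR1, CYSLTR1, MEFV, SLC15A3 and RAC2, between 1.47 for MEFV, the inflammasome protein pyrin, and 2.05 for IGSF6.

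Over the whole marker list of leukocytes and macrophages, 7 of 39 genes tested were called higher (CD53, LYZ, CYBB, LCP1, PLBD1, SPI1 and RAC2) and none lower, against 0.406% higher among all genes. In 30 of the 39 (76.9%, against 28.7% of all genes) the 4 dpi libraries lay above the uninjured ones without overlap. The median log2 fold change of the list was 1.05, and 0.95 after scaling. The summed TPM of the list were 3185 to 3844 at 4 dpi and 1411 to 1744 without injury. Of the defining markers, PTPRC (CD45) had 7.20, 10.9 and 7.08 TPM at 4 dpi and 2.99, 3.56 and 2.24 TPM without injury (limma adjusted p = 0.101). CD68, a macrophage protein, had 19.6, 31.0 and 19.3 TPM at 4 dpi and 4.25, 7.87 and 3.43 TPM without injury (limma adjusted p = 0.0521). Neither overlapped between groups and neither passed. AIF1, also of macrophages, had 189.7, 253 and 197 TPM at 4 dpi and 177, 125 and 226 TPM without injury, so its groups overlapped. VAV1 was at 0 in all uninjured inhibitor libraries, and ELANE was not among the genes tested. In pooled tissue, more cells of a type and more RNA per cell cannot be told apart. Of 22 genes of granulocyte and phagocyte effectors, 3 were called higher (LYZ, CYBB and PLBD1, against 0.406% of all genes), with a list median of 1.2. After scaling LYZ was not called, 4 of the 22 were called higher and the median was 0.95. GPNMB, a glycoprotein of phagocytosing macrophages, had 32.5, 67.7 and 27.7 TPM at 4 dpi and 8.34, 11.4 and 14 TPM without injury and did not pass (log2 fold change 1.79, SE 0.37, limma adjusted p = 0.0521).

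Of the 60 genes called higher, 7 encode enzymes of lysosomes or of lipid handling, and 3 of these 7 were also called after scaling (CTSZ, SOAT1 and CES1). ASAH1, the acid ceramidase, had 444, 484 and 424 TPM at 4 dpi and 209, 196 and 167 TPM without injury (log2 fold change 1.24, SE 0.18, limma adjusted p = 0.0121). CTSL, cathepsin L, had 102, 118 and 129 TPM at 4 dpi and 37.5, 36.3 and 46.2 TPM without injury (log2 fold change 1.53, SE 0.24, limma adjusted p = 0.0155). CTSC, the cathepsin that activates granule proteases, had 453, 562 and 509 TPM at 4 dpi, against 246, 227 and 256 TPM without injury (log2 fold change 1.06, SE 0.16, limma adjusted p = 0.0155). None of the 3 overlapped between groups, and all 3 lost their call after scaling, with limma adjusted p between 0.0575 and 0.156. CTSZ, cathepsin Z, had 73.8, 95.4 and 68.1 TPM at 4 dpi and 16.1, 27.6 and 13.8 TPM without injury (log2 fold change 2.06, SE 0.41, limma adjusted p = 0.0497). NPC2, which carries cholesterol out of lysosomes, had an adjusted p of 0.0422 in limma but a log2 fold change of 0.91, short of the threshold. Of 31 lysosomal genes, 4 were called higher (ASAH1, CTSL, CTSC and CTSZ, against 0.406% of all genes), none lower, and 15 did not overlap in the higher direction (48.4%, against 28.7% of all genes), with a median log2 fold change of 0.54. After scaling 1 of the 31 was called higher, and the median was 0.27.

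Among enzymes of lipid handling, SOAT1, which esterifies cholesterol for storage, had 44.6, 66.6 and 41.2 TPM at 4 dpi and 15.8, 20.0 and 10.4 TPM without injury (log2 fold change 1.70, SE 0.31, limma adjusted p = 0.0361). CES1, a carboxylesterase, had 39.3, 84.6 and 63.0 TPM at 4 dpi and 8.46, 8.30 and 4.80 TPM without injury (log2 fold change 3.00, SE 0.38, limma adjusted p = 0.00487), and CES5A of the same family had 134, 198 and 168 TPM at 4 dpi and 38.5, 33.4 and 44.2 TPM without injury, a call that was lost after scaling (limma adjusted p = 0.0575). ABCA1, the cholesterol exporter, had 11.1, 9.33 and 8.39 TPM at 4 dpi and 3.37, 4.49 and 2.94 TPM without injury and did not pass the test (limma adjusted p = 0.0755). SOAT1 was the 1 member called higher (against 0.406% of all genes) of 26 genes of apolipoproteins and lipid handling, whose median was 0.68. The genes of cholesterol synthesis had a median of -0.26, with none of 23 called and 3 lower at an unadjusted p under 0.05 (all genes 3.07%). SQLE, squalene epoxidase, had 14, 27.5 and 20.5 TPM at 4 dpi and 38.9, 29.7 and 47.4 TPM without injury (limma adjusted p = 0.256).

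Secreted signals and their regulators accounted for 8 of the genes called higher, most with uninjured levels of a few TPM or less. IL11, a cytokine of the interleukin-6 family, had 5.18, 2.94 and 5.23 TPM at 4 dpi and 0.0603, 0.193 and 0.220 TPM without injury (log2 fold change 2.88, SE 0.48, limma adjusted p = 0.0253). LEP, the hormone leptin, had 31.0, 36.2 and 43.8 TPM at 4 dpi and 0.231, 0.986 and 1.05 TPM without injury (log2 fold change 4.96, SE 0.84, limma adjusted p = 0.0272). HGF, hepatocyte growth factor, had 10.8, 12 and 6.86 TPM at 4 dpi and 1.29, 1.57 and 1.1 TPM without injury (log2 fold change 2.49, SE 0.47, limma adjusted p = 0.0419). All uninjured values of IL11, LEP and DKK1 (given below) lay at or under 1.05 TPM, so their folds rest on values near the pseudocount. IL27, a cytokine subunit gene, had 3.99, 5.73 and 5.46 TPM at 4 dpi and was listed at 0 in all 3 uninjured inhibitor libraries, so no fold is given. In control cords IL27 lay at 9.67, 4.36 and 6.89 TPM at 4 dpi and 3.00, 9.74 and 8.13 TPM without injury, which overlapped. DKK1, a secreted Wnt antagonist, had 5.10, 3.85 and 2.72 TPM at 4 dpi and 0.235, 0.359 and 0.582 TPM without injury (log2 fold change 2.28, SE 0.41, limma adjusted p = 0.0361). SOCS1, a brake on cytokine signaling, had 15, 15.6 and 20.2 TPM at 4 dpi and 5.29, 6.25 and 4.65 TPM without injury (log2 fold change 1.56, SE 0.30, limma adjusted p = 0.0459), which after scaling had an adjusted p of 0.0575 in limma and was not called. LRRC32, which holds latent TGF-beta at the cell surface, had 108, 137 and 131 TPM at 4 dpi and 38.0, 51.7 and 32.5 TPM without injury (log2 fold change 1.63, SE 0.25, limma adjusted p = 0.0155).

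Of 35 genes of cytokines, chemokines and receptors, IL11 was the 1 called (against 0.406% of all genes), while 17 were higher at an unadjusted p under 0.05 (all genes 14.6%) and none lower. The list median was 0.95. IL1R2, the decoy receptor for interleukin-1, had 7.57, 8.95 and 7.36 TPM at 4 dpi and 2.55, 4.03 and 1.5 TPM without injury (log2 fold change 1.48, limma adjusted p = 0.0617). CCL5, a chemokine, had 2.77, 2.96 and 3.38 TPM at 4 dpi and 0.838, 0.596 and 0.509 TPM without injury (limma adjusted p = 0.0668). Neither gene overlapped between groups, but neither passed. Of 25 interferon response genes none was called, 11 were higher at an unadjusted p under 0.05 (all genes 14.6%), 16 were higher without overlap (64.0%, against 28.7% of all genes), and the median was 0.64. IFIT5, an interferon-induced RNA-binding protein, had 306, 288 and 416 TPM at 4 dpi and 178, 127 and 34.2 TPM without injury (limma adjusted p = 0.113). Its uninjured values were uneven, with library 7 lowest. Of 26 complement components C5AR1 alone was called (against 0.406% of all genes), and the list median of 0.33 lay 0.07 above that of all genes. C8G, a subunit of the membrane attack complex, had 15.4, 27.2 and 17.5 TPM at 4 dpi and 66.3, 35.5 and 61.0 TPM without injury (log2 fold change -1.41, limma adjusted p = 0.245).

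Among 5 called genes of stress and muscle wasting was the largest fold change of the comparison, which also had a wide spread. HSPA1A, the inducible chaperone HSP70, had 6.81, 263 and 497 TPM in 4 dpi inhibitor libraries 5, 6 and 7 and 0, 0.720 and 0.307 TPM without injury (log2 fold change 6.96, SE 1.37, limma adjusted p = 0.0497). Library 5 lay far below the other 4 dpi libraries, and the call was lost in 16 of 29 alternatives, among them the fit of only the 6 libraries compared. HSPA1L, another HSP70 gene with which reads could be shared, had 2.12, 92.2 and 162 TPM at 4 dpi and 0.662, 0.861 and 0.784 TPM without injury, with library 5 low again, and was not called (limma adjusted p = 0.110). The median of 27 heat shock and chaperone genes was 0.19, -0.07 from that of all genes and -0.08 after scaling. HMOX1, heme oxygenase, had 61.0, 71.3 and 48.5 TPM at 4 dpi and 10.3, 9.50 and 10.8 TPM without injury (log2 fold change 2.49, SE 0.34, limma adjusted p = 0.00818). RRAD, a small GTPase of muscle, had 58.2, 41.4 and 76.3 TPM at 4 dpi and 4.96, 7.27 and 6.12 TPM without injury (log2 fold change 3.13, SE 0.40, limma adjusted p = 0.00487). FBXO32, the muscle ubiquitin ligase atrogin-1, had 12.8, 7.13 and 5.96 TPM at 4 dpi and 0.0788, 0.875 and 0 TPM without injury (log2 fold change 3.56, SE 0.61, limma adjusted p = 0.0288). C10orf10, a FOXO-responsive gene also named DEPP1, had 27.0, 28.8 and 37.7 TPM at 4 dpi and 2.87, 3.38 and 6.59 TPM without injury (log2 fold change 2.79, SE 0.48, limma adjusted p = 0.0288). HMOX1 and RRAD had the smallest standard errors of the 5 genes. Uninjured values of HSPA1A and FBXO32 lay at or under 0.875 TPM, so their folds rest on values near the pseudocount. In control cords HSPA1A had 16.1, 3.68 and 64.5 TPM at 4 dpi and 12.2, 56.8 and 6.93 TPM without injury. FBXO32 had 30.2, 59.7 and 47.8 TPM at 4 dpi and 2.83, 21.6 and 9.96 TPM without injury there. The uninjured inhibitor values of both genes thus lay below all their control values.

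No immediate early gene was called, while 16 of 32 were higher by the unadjusted p. At an unadjusted p under 0.05 these 16 compare with 14.6% of all genes, none was lower, and the list median was 1.14, or 0.90 after scaling. JUNB, an AP-1 subunit, had 158, 312 and 339 TPM at 4 dpi and 25.6, 55.5 and 35.8 TPM without injury (log2 fold change 2.77, SE 0.68, limma adjusted p = 0.0915). FOSL2, another AP-1 subunit, had 14.9, 16.1 and 11.7 TPM at 4 dpi and 1.12, 4.58 and 0.510 TPM without injury (log2 fold change 2.85, SE 0.56, limma adjusted p = 0.0515). FOS had 2.11, 25.2 and 25.1 TPM at 4 dpi and 0.740, 2.33 and 1.73 TPM without injury (limma adjusted p = 0.144). JUN had 40.9, 78.3 and 59.3 TPM at 4 dpi and 21.4, 33.8 and 27.1 TPM without injury (limma adjusted p = 0.154). FOS was low in 4 dpi library 5 and its groups overlapped, while those of JUNB, FOSL2 and JUN did not. ZFP36, which destabilizes cytokine messenger RNAs, had 17.2, 30.9 and 39.2 TPM at 4 dpi and 1.96, 10.4 and 1.39 TPM without injury (limma adjusted p = 0.0571).

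A further 6 of the genes called higher encode matrix enzymes and their inhibitors or proteins of the cell surface, cell junctions and the cytoskeleton. MMP11, the matrix protease stromelysin-3, had 8.61, 5.37 and 4.67 TPM at 4 dpi and 0.0890, 0.380 and 0 TPM without injury (log2 fold change 3.35, SE 0.62, limma adjusted p = 0.0370). Its fold rests on uninjured values near the pseudocount. SDC1, the cell surface proteoglycan syndecan-1, had 84.5, 148 and 143 TPM at 4 dpi and 24.7, 27.2 and 9.43 TPM without injury (log2 fold change 2.67, SE 0.49, limma adjusted p = 0.0361). SDC1 lost its call after scaling (limma adjusted p = 0.0512) and was lowest in uninjured library 7, and neither gene overlapped between groups. EFHD2, a calcium-binding regulator of actin, had 50.4, 75.8 and 54.5 TPM at 4 dpi and 9.29, 16.3 and 2.44 TPM without injury (log2 fold change 2.93, SE 0.55, limma adjusted p = 0.0419). PI15, a secreted protease inhibitor, had 148, 199.5 and 191 TPM at 4 dpi and 42.8, 61.8 and 39.2 TPM without injury (log2 fold change 1.91, SE 0.27, limma adjusted p = 0.0106). RAI14, which binds actin, was called too, at a log2 fold change of 1.63. MMP11 was the 1 member called higher (against 0.406% of all genes) of 31 matrix proteases and inhibitors, of which 20 were higher without overlap (64.5%, against 28.7% of all genes), with a median of 0.85. Another 9 called genes had other or mixed roles. ASGR1, in mammals the asialoglycoprotein receptor of hepatocytes, had 10.6, 12.9 and 7.16 TPM at 4 dpi and 1.72, 0.983 and 0.503 TPM without injury (log2 fold change 2.81, SE 0.42, limma adjusted p = 0.0121). The other 8 (TMEM144, MS4A15, SAMD9, SLC30A10, KCTD14, USP53, SH2D5 and NUDT12) had log2 fold changes between 1.25 and 2.40.

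Of 34 matrix glycoproteins and scar proteoglycans and of 30 collagen chains none was called. At an unadjusted p under 0.05, 7 and 5 were higher (all genes 14.6%) and 1 and 0 lower (all genes 3.07%), with medians of 0.60 and 0.42. Without overlap, 16 and 11 lay higher (all genes 28.7%) and 8 and 0 lower (all genes 9.1%), so the matrix glycoproteins went both ways. FN1, fibronectin, had 31.8, 30.2 and 23.5 TPM at 4 dpi and 9.35, 13.7 and 10.5 TPM without injury (limma adjusted p = 0.139). THBS1, thrombospondin-1, had 26.2, 23.1 and 23.4 TPM at 4 dpi and 2.62, 9.33 and 1.85 TPM without injury (limma adjusted p = 0.0988). COL17A1, the collagen of epidermal hemidesmosomes, had 18.0, 23.1 and 17.0 TPM at 4 dpi and 0.962, 4.61 and 0.0877 TPM without injury (log2 fold change 3.59, SE 0.72, limma adjusted p = 0.0520). None of the 3 overlapped between groups. Over the list of 33 epidermal and epithelial genes, none was called, 22 were higher at an unadjusted p under 0.05 (all genes 14.6%), 20 did not overlap in that direction (60.6%, against 28.7% of all genes), and the median of 1.24 was the highest of the 38 lists. Summed TPM of this list were 3908 to 8012 at 4 dpi and 1605 to 3748 without injury. In control cords the sums were 9893 to 10880 at 4 dpi and 5640 to 16895 without injury, with a list median of 0.19. The uninjured inhibitor sums thus lay below those of all control libraries, and so did the low end of the 4 dpi inhibitor sums. KRT17, a keratin of wounded skin, had 163, 345 and 256 TPM at 4 dpi and 25.1, 17.5 and 19.2 TPM without injury (log2 fold change 3.55, SE 0.82, limma adjusted p = 0.0773). KRT5, the defining keratin of basal skin cells, had 236, 559.6 and 547 TPM at 4 dpi and 224, 203 and 145 TPM without injury. KRT80 and ESRP1 were at 0 in all uninjured inhibitor libraries. The part of skin in the matrix and epithelial values was not tested. Of 17 factors of epithelial-mesenchymal transition none was called and 6 were higher at an unadjusted p under 0.05 (all genes 14.6%), with a median of 1.17. This list is mixed and also holds ESRP1 of the epithelial list, so its median gives no direction of the transition. SNAI2, a repressor of epithelial genes, had 12.9, 15.5 and 13.8 TPM at 4 dpi and 5.65, 9.58 and 3.85 TPM without injury (limma adjusted p = 0.138). GRHL2, which sustains them, had 7.72, 22.7 and 8.44 TPM at 4 dpi and 6.25, 3.39 and 0.318 TPM without injury (limma adjusted p = 0.176).

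The 4 genes called lower belonged to none of the gene lists. PTGDS, a prostaglandin D synthase secreted by the meninges in mammals, had 119, 172 and 135 TPM at 4 dpi and 617, 331 and 666 TPM without injury (log2 fold change -1.87, SE 0.33, limma adjusted p = 0.0355). PPY, pancreatic polypeptide, had 0.856, 0.824 and 0.783 TPM at 4 dpi and 10.1, 6.64 and 18.4 TPM without injury (log2 fold change -3.09, SE 0.56, limma adjusted p = 0.0361). PRDX2, a peroxidase abundant in red blood cells and neurons, had 85.0, 107 and 95.1 TPM at 4 dpi and 219, 172 and 294 TPM without injury (log2 fold change -1.22, SE 0.20, limma adjusted p = 0.0253). PLA2G2E, a secreted phospholipase A2, was listed at 0 in all 4 dpi inhibitor libraries and had 4.64, 5.57 and 4.23 TPM without injury. It was also listed at 0 in all 6 control libraries. PLA2G2E thus passed the expression filter only through the uninjured inhibitor libraries, where it was high, so its call is no support for a fall. Uninjured inhibitor library 6 had the lowest value of the first 3 genes and the highest of PLA2G2E. Of the genes that came next by p-value but did not pass, NDUFA12, a respiratory chain subunit, had 318, 577 and 346 TPM at 4 dpi and 1093, 664 and 1187 TPM without injury (limma adjusted p = 0.0531).

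Of the listed genes of ependymoglia and neurons none passed the test in either direction. Of 34 genes of neural stem cells and ependymoglia, 3 were higher and 2 lower at an unadjusted p under 0.05 (all genes 14.6% and 3.07%). The list median was 0.10, or -0.16 after scaling. GFAP, the intermediate filament of glia, had 97.2, 134 and 85.7 TPM at 4 dpi and 333, 262 and 639.7 TPM without injury (log2 fold change -1.88, SE 0.53, limma adjusted p = 0.122). FABP7, the fatty acid carrier of radial glia, had 124, 80.5 and 116 TPM at 4 dpi and 289, 246 and 289.6 TPM without injury (limma adjusted p = 0.168). NES, the progenitor filament nestin, had 200.2, 199.5 and 222 TPM at 4 dpi and 83.6, 144 and 86.8 TPM without injury (limma adjusted p = 0.111). GFAP and FABP7 lay lower and NES higher at 4 dpi without overlap, while SOX2 differed by 0.03 on the log2 scale. After scaling GFAP was called lower (log2 fold change -2.15, limma adjusted p = 0.0421).

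Among 55 genes of neurons and synapses, 1 was higher and 5 were lower at an unadjusted p under 0.05 (all genes 14.6% and 3.07%). Summed TPM of these 55 genes of neurons and synapses were 979 to 1078 at 4 dpi and 1550.4 to 1888 without injury, although the list median was 0.07, or -0.11 after scaling. SNAP25, a protein of vesicle fusion, had 85.8, 129 and 98.0 TPM at 4 dpi and 257, 207 and 313 TPM without injury (limma adjusted p = 0.188). NEFL, an axonal filament, had 94.1, 107 and 81.4 TPM at 4 dpi and 221, 206 and 242 TPM without injury (limma adjusted p = 0.250). STMN2, a growth cone protein of neurons, had 772, 962 and 788 TPM at 4 dpi and 1428, 1556 and 2227 TPM without injury (limma adjusted p = 0.252). All 3 lay lower at 4 dpi without overlap, STMN2 being listed among the neuronal differentiation factors. VAMP2, also of vesicle fusion, lay higher without overlap. It had 56.6, 48.6 and 60.6 TPM at 4 dpi and 24.2, 45.5 and 17.7 TPM without injury (limma adjusted p = 0.201). DCX, of the same list as STMN2, lay higher without overlap too (log2 fold change 1.53, limma adjusted p = 0.309). Of the 55 genes, 3 lay higher and 16 lower without overlap (all genes 28.7% and 9.1%). RBFOX3 (NeuN) had 1.70, 1.60 and 1.52 TPM at 4 dpi and 1.01, 2.81 and 1.38 TPM without injury, which overlapped. Of 34 genes of motile cilia, 31 neuronal differentiation factors and 23 myelin genes none was called, with medians of -0.07, -0.14 and -0.04. Of 45 genes of the cell cycle and DNA replication none was called and 7 were higher at an unadjusted p under 0.05 (all genes 14.6%). Of these 45 genes, 20 lay higher without overlap (44.4%, against 28.7% of all genes), with a median of 0.24 that became -0.02 after scaling. MKI67, the proliferation antigen Ki-67, had 33.0, 35.2 and 30.2 TPM at 4 dpi and 17.8, 24.9 and 15.1 TPM without injury (limma adjusted p = 0.163).

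The study turned on the mesodermal factor brachyury and on Wnt and FGF ligands. Its brachyury finding set inhibitor cords against control cords and also rested on qRT-PCR, in situ hybridization and a luciferase reporter. The values below compare injured with uninjured cords under the inhibitor, which is a different comparison from that for brachyury. For wnt5a the study reports by qRT-PCR a rise after injury in control cords that was absent in inhibitor-treated animals. Its in situ hybridization showed less wnt5a within the cord under the inhibitor and an apparent increase outside it. T (brachyury) had 4.86, 6.69 and 5.84 TPM at 4 dpi and 2.01, 1.76 and 2.58 TPM without injury under the inhibitor (log2 fold change 1.27, SE 0.54, limma adjusted p = 0.253) and did not pass, although its groups did not overlap. WNT5A, a ligand of noncanonical Wnt signaling, had 16.3, 14.1 and 16.7 TPM at 4 dpi and 2.65, 7.49 and 2.00 TPM without injury (log2 fold change 2.02, SE 0.41, limma adjusted p = 0.0521), just short of the threshold, and was called after scaling (log2 fold change 1.81, limma adjusted p = 0.0350). This higher WNT5A level differs from the study's qRT-PCR under the inhibitor, and the libraries also held tissue other than cord, whose part was not tested. WNT5B and WNT10A had log2 fold changes of 2.07 and 2.15 and limma adjusted p of 0.0902 and 0.0862. Of 31 Wnt ligands and targets DKK1 alone was called (against 0.406% of all genes), 9 were higher at an unadjusted p under 0.05 (all genes 14.6%) and none lower, and the median was 0.61. FGF10 had 4.94, 5.63 and 9.18 TPM at 4 dpi and 2.36, 4.79 and 2.58 TPM without injury (limma adjusted p = 0.220). CDX4, a factor of the growing tail end, had 5.92, 5.38 and 4.73 TPM at 4 dpi and 2.08, 2.13 and 1.96 TPM without injury (limma adjusted p = 0.191). Of 17 factors of neuromesodermal and paraxial progenitors none was called, and the median of 0.26 lay 0.01 from that of all genes. TDRD9, an RNA helicase of the piRNA pathway, had 17.1, 0 and 0.124 TPM at 4 dpi and 39.4, 23.1 and 46.0 TPM without injury, and lay at or under 0.311 TPM in all control libraries (limma adjusted p = 0.0800). AGO2, the slicing Argonaute through which microRNAs act, had 6.6, 5.01 and 5.00 TPM at 4 dpi and 0.130, 2.58 and 0.05 TPM without injury (limma adjusted p = 0.0988), with uninjured library 6 far above libraries 5 and 7.

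**Figure D3:**
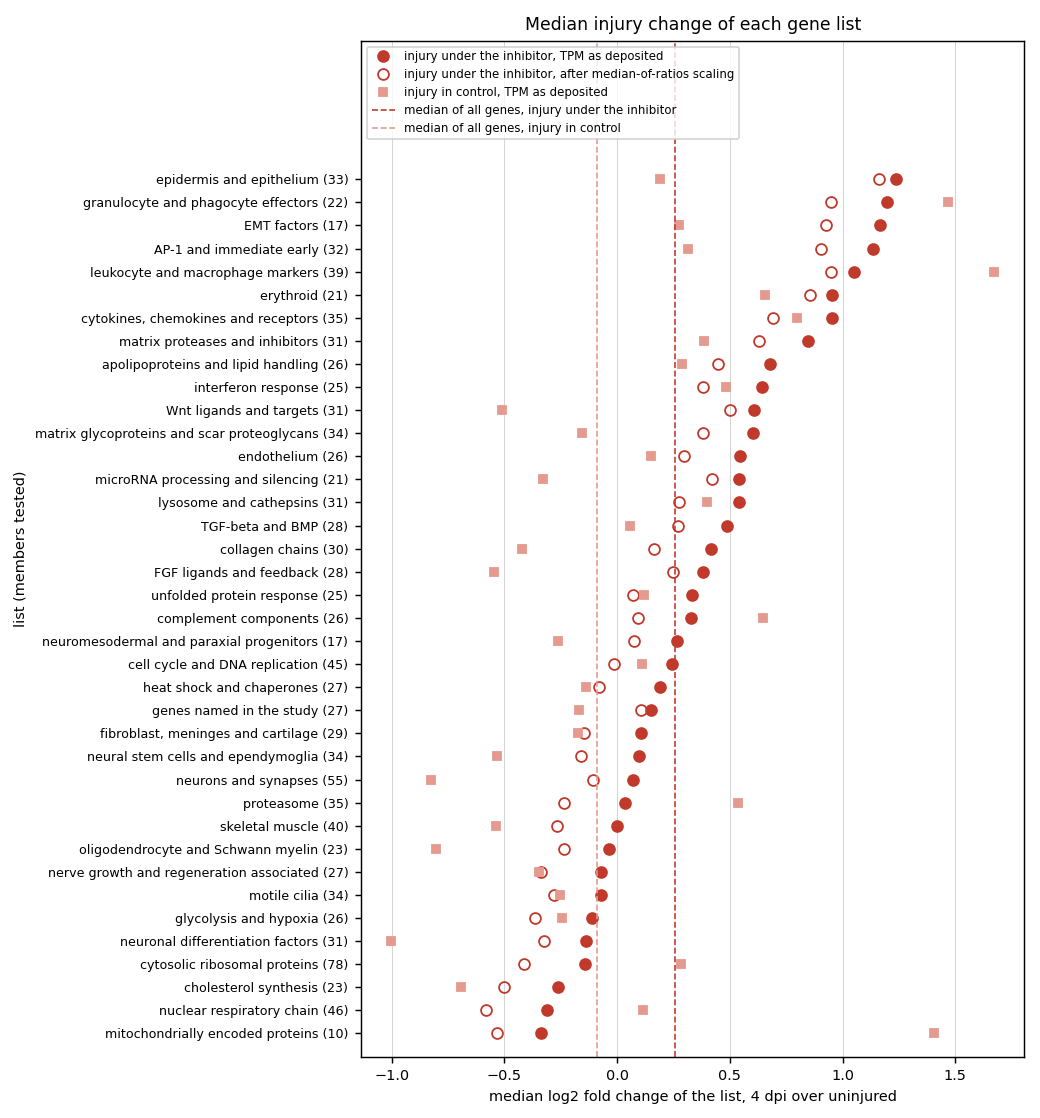
Median log2 fold change (4 dpi over uninjured) of 38 gene lists under the inhibitor (filled circles, as deposited; open circles, after scaling) and in control cords (squares), with dashed lines at the medians of all genes, 0.26 under the inhibitor and -0.09 in control. Epidermal, granulocyte, EMT, immediate early and leukocyte lists lie above 1 under the inhibitor, and nuclear and mitochondrial respiratory genes lie lowest.

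Genes of ribosomes and of the respiratory chain had medians below that of all genes. Of 78 cytosolic ribosomal protein genes none was called. At an unadjusted p under 0.05, 8 of these genes were lower (all genes 3.07%) and none higher, with a median of -0.14. They held 12.9 to 15.7% of all TPM at 4 dpi and 14.5 to 17.1% without injury. Of 46 nuclear genes of the respiratory chain none was called and 10 were lower at an unadjusted p under 0.05 (all genes 3.07%). Of these 46 genes, 23 lay lower without overlap (against 9.1% of all genes), and the median was -0.31. NDUFB5, a complex I subunit, had 644, 965 and 665 TPM at 4 dpi and 1411, 900.0 and 1593 TPM without injury (limma adjusted p = 0.141), and its groups overlapped. Muscle genes had a median close to 0 with none of 40 called (-0.27 after scaling). The 21 erythroid genes had a median of 0.95 with none called and 10 higher at an unadjusted p under 0.05 (all genes 14.6%). HBZ, an embryonic globin, had 217, 156 and 484 TPM at 4 dpi and 114, 135 and 102 TPM without injury (limma adjusted p = 0.161). GATA1 and EPOR were at 0 in all uninjured inhibitor libraries, and 7 of the 28 erythroid genes listed, HBA1 and HBB among them, were not tested.

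The summed TPM of 50 very large proteins, a list added after the values were seen, were 428 to 524 at 4 dpi and 273 to 377 without injury, against 638 to 1376 in 4 dpi control and 882 to 1333 in uninjured control libraries. In 31 of the 50 (62.0%, against 28.7% of all genes) the 4 dpi inhibitor libraries lay above the uninjured inhibitor libraries. At an unadjusted p under 0.05, 12 of the 50 were higher (all genes 14.6%), and none was called. The 4 dpi inhibitor libraries thus had fewer genes at 0 and a higher sum of very large proteins than the uninjured inhibitor libraries, without overlap, while the ribosomal share overlapped. The part of these differences in the changes of single genes was not tested.

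**Figure D4:**
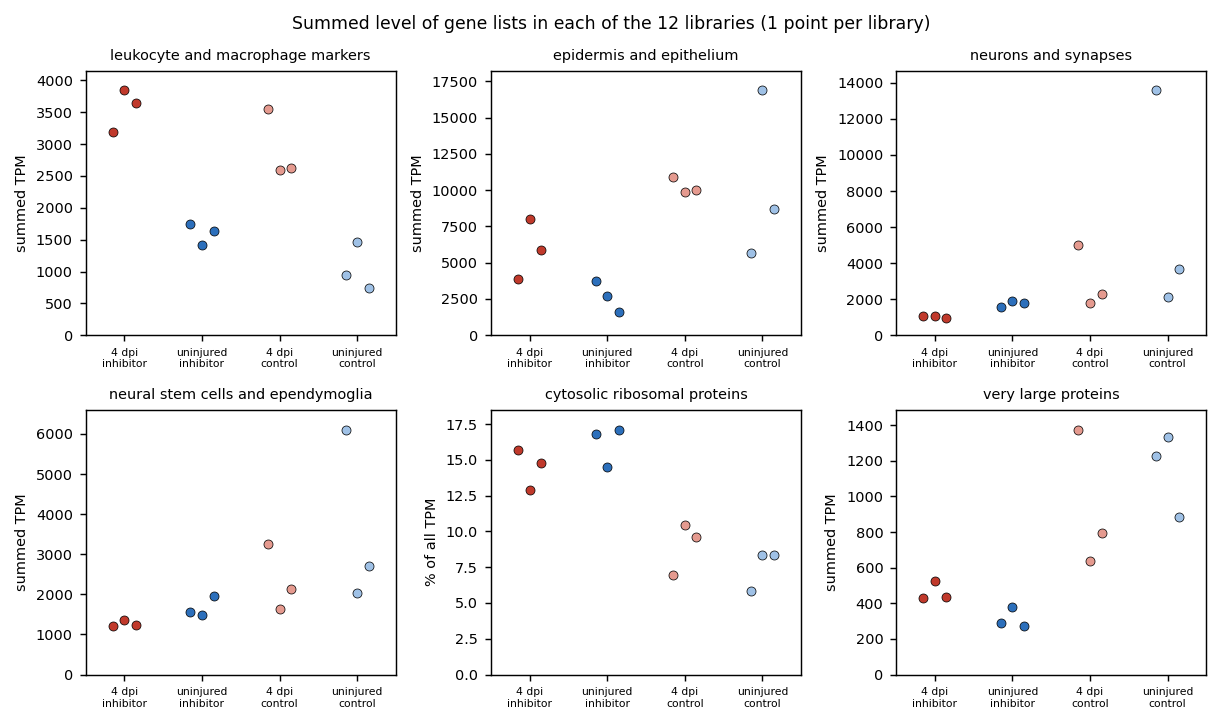
Summed TPM of 5 gene lists and the share of TPM held by ribosomal protein genes, 1 point per library, in 4 dpi inhibitor (red), uninjured inhibitor (blue), 4 dpi control (light red) and uninjured control cords (light blue). Under the inhibitor the leukocyte sum lies at 3185 to 3844 at 4 dpi and 1411 to 1744 without injury, the neuronal sum lies lower at 4 dpi, and the ribosomal share lies above that of all control libraries.

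Injury in control cords, which shares no library with the comparison above, called 129 genes higher and 9 lower (0.874% and 0.061%, or 0.935% in all). Both changes came from the same fit of all 12 libraries, with a shared variance for each gene, so the sets of calls are not independent. A fit of only the 6 control libraries called 5 genes. Of the 60 genes higher under the inhibitor, 35 were called higher in control too, which was 58.3% of the inhibitor list and 27.1% of the control list, 24 were not called there, and C1QTNF9 was called lower. No gene was called lower in both. The control count of 138 was 91 without 4 dpi control library 5, 85 without 4 dpi control library 6 and 320.0 without uninjured control library S2. Of the 60, 56 had a positive log2 fold change in control, and 51 did not overlap there between 4 dpi and uninjured libraries (7.63% of all genes). Of the 129 genes called higher in control, 127 had a positive log2 fold change under the inhibitor, with a median of 1.39 there and 2.42 in control, where they were chosen. Across all genes the injury changes under the inhibitor and in control correlated at r = 0.28, over 14764 genes that are not independent replicates.

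By role, the shared genes were mostly those of immune cells and lysosomes. Of the 25 immune genes, 19 were called higher in control, and of the 7 lysosome and lipid genes 6. Of 8 secreted signals and regulators 4 were (IL11, HGF, DKK1 and LRRC32), of 5 stress genes 2 (HMOX1 and RRAD), of 6 matrix, junction and cytoskeleton genes 2 (PI15 and RAI14) and of the 9 others 2 (ASGR1 and TMEM144), the exceptions being MS4A15, SAMD9, SLC30A10, KCTD14, USP53, SH2D5 and NUDT12. The log2 fold change was smaller under the inhibitor than in control for 19 of the 25 immune genes and larger for all 6 matrix, junction and cytoskeleton genes and all 9 others. These counts follow genes chosen for their change under the inhibitor, so they are a description. The median change of all genes was itself larger under the inhibitor (0.26) than in control (-0.09), so larger changes are not read as a trait of these roles. Some differences were slight, as for PI15 (1.91 under the inhibitor and 1.90 in control). None of the matrix, junction, cytoskeleton or other genes passed the test of the difference given below.

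**Figure D5:**
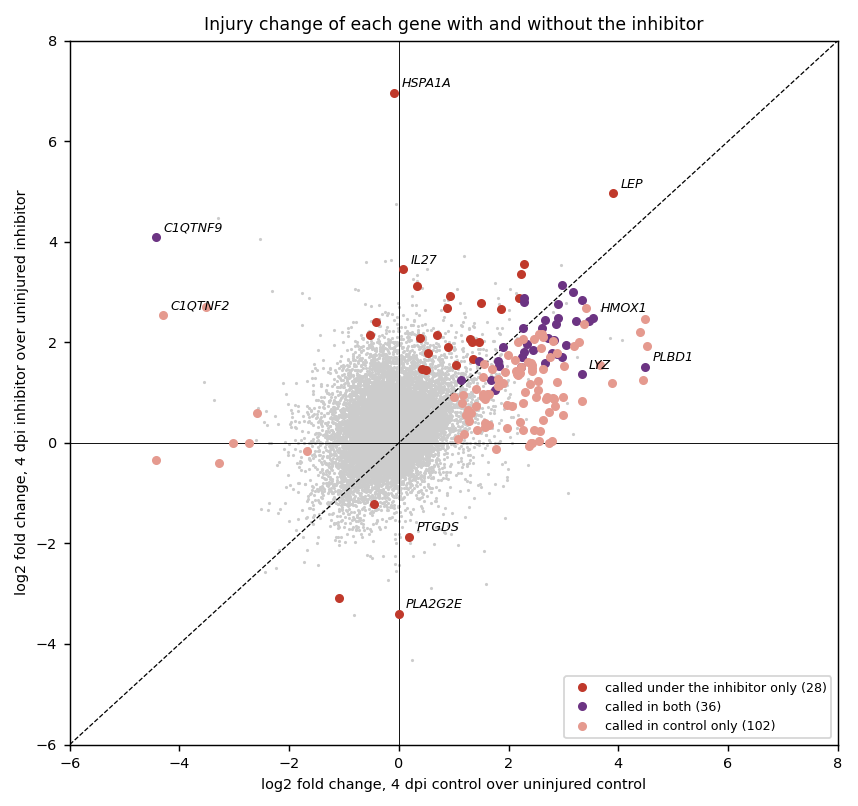
Log2 fold change of each gene in control cords (4 dpi control over uninjured control, x axis) and under the inhibitor (4 dpi inhibitor over uninjured inhibitor, y axis), with genes called in 1 or both comparisons in color and a dashed line of equal change. LYZ (1.36 under the inhibitor and 3.33 in control) and PLBD1 lie below the line, and C1QTNF9 (4.10 and -4.42) lies on opposite sides of 0.

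The difference between the injury changes was tested as an interaction and passed an adjusted p under 0.05 for 4 genes (0.0271% of genes tested), 2 in each direction (0.0135%), while 989 had an unadjusted p under 0.05. C1QTNF9, a secreted relative of adiponectin, had 17.1, 18.4 and 8.41 TPM in 4 dpi inhibitor and 0, 1.17 and 0.200 TPM in uninjured inhibitor cords, against 1.98, 0.798 and 0.278 TPM in 4 dpi control and 47.8, 19.9 and 24.3 TPM in uninjured control cords. The change was 4.10 under the inhibitor and -4.42 in control (interaction 8.52, SE 0.78, limma adjusted p = 0.00120). C1QTNF2, of the same family, had 18.6, 30.3 and 32.5 TPM in 4 dpi inhibitor and 7.4, 8.45 and 0.906 TPM in uninjured inhibitor cords, against 2.48, 2.73 and 1.21 TPM in 4 dpi control and 41.0, 105 and 28.5 TPM in uninjured control cords (interaction 6.84, SE 0.92, limma adjusted p = 0.0196), and was itself not called under the inhibitor. Both lay high in injured inhibitor and in uninjured control cords and low in the other groups. LYZ had 807, 954 and 817 TPM in 4 dpi control and 77.9, 89.5 and 87.5 TPM in uninjured control cords, and its change was 1.36 under the inhibitor and 3.33 in control (interaction -1.97, SE 0.23, limma adjusted p = 0.00857). PLBD1 had 102, 79.6 and 129 TPM in 4 dpi control and 5.32, 2.99 and 4.10 TPM in uninjured control cords (interaction -2.98, SE 0.37, limma adjusted p = 0.0116). Both rose with injury under either treatment, and their levels in uninjured inhibitor cords lay far above those in uninjured control cords. The count of 4 was 2 without 4 dpi inhibitor library 6 or 7 or 4 dpi control library 1, 1 without 4 dpi control library 6 and 10 without uninjured control library 1. FNDC7, next in order, did not pass (limma adjusted p = 0.0589).

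The levels in uninjured cords, from which an injury change is counted, were set beside those of control cords. In 16 of the 25 immune genes all uninjured inhibitor libraries lay above all uninjured control libraries, and in 1 below, while over all genes the shares were 8.49% above and 48.9% below. At 4 dpi, 17 of the 25 lay above control without overlap and 1 below (6.62% above over all genes, while the share below was not counted). EVI2A is an example, with means of 74.3 TPM in 4 dpi inhibitor, 10.2 TPM in uninjured inhibitor, 28.9 TPM in 4 dpi control and 2.45 TPM in uninjured control cords. Of the 6 matrix, junction and cytoskeleton genes 3 lay below uninjured control and 1 above, and of the 9 others 6 lay below and 2 above. Of the 5 stress genes 2 lay below and 0 above. Since 48.9% of all genes lay below, these counts are not read as a trait of any of these roles. SDC1 had means of 125 TPM in 4 dpi inhibitor and 20.4 TPM in uninjured inhibitor cords, against 232 TPM in 4 dpi control and 151 TPM in uninjured control cords. Since these comparisons share the libraries of the injury change, they add no independent evidence.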

How the data were processed

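Messenger RNA was measured by RNA sequencing in 12 libraries of axolotl spinal cord, 3 in each of 4 groups taken from the labels. The deposited values are TPM per gene, made by the authors and given under human gene symbols. The submitters' processing notes name Bowtie 0.12.1, RSEM 1.1.6 and DESeq2 1.16.1 with no role. Which transcriptome was used and how human symbols were assigned is not given in the sources used here. TPM keeps no depth, so no counting interval was computed. A total of 25 symbols that had turned into dates were read from the gene identifiers.

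Genes with at least 0.5 TPM in 3 of the 12 libraries were fitted with limma 3.58.1 (R 4.3.3) on log2(TPM + 0.5), with 4 group means and a trended prior variance. Contrasts were 4 dpi against uninjured under the inhibitor, the same in control, and their difference, each with Benjamini-Hochberg adjustment over all genes tested. Calls needed an adjusted p below 0.05 and, except for the difference, a log2 fold change of more than 1 in size. Non-overlap means that every library of 1 group lay above every library of the other. The code was tested on simulated data. Alternatives were other pseudocounts, filters, scalings, variance models, sets of libraries and thresholds, and the replicate number as a block, 27 planned and 2 chosen after seeing the data.

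The genes, lists and comparisons were chosen with earlier results of these data known. Named were up to 15 called genes a direction by fold change whose mean reached 5 TPM where it was higher. These were filled by p-value to 15 where fewer than 10 were called. Also named were up to 4 members of each of 38 lists by adjusted p, the genes the study names, and up to 5 genes by the adjusted p of the difference. Other genes that are named, the defining markers, the sorting of called genes by role and the list of very large proteins were chosen after their values were seen. Some genes of these groups are not reported here. Figures were drawn with matplotlib 3.10.9 in Python 3.11.15.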

Additional observations from a re-analysis of the deposited data

Results flagged for a closer look

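The injury change differed between inhibitor and control cords for 4 genes by the interaction test in limma, given as the log2 change under the inhibitor minus that in control. The difference was 8.52 for C1QTNF9 (limma adjusted p = 0.00120) and 6.84 for C1QTNF2 (limma adjusted p = 0.0196), both secreted proteins of the C1q and TNF-related family. It was -1.97 for LYZ (limma adjusted p = 0.00857) and -2.98 for PLBD1 (limma adjusted p = 0.0116). The call of C1QTNF9 was kept in all 23 alternatives run for it, that of LYZ was lost in 3, that of PLBD1 in 5 and that of C1QTNF2 in 7.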

How the results depend on the processing

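The count of calls under the inhibitor (64) became 184 with median-of-ratios scaling, 608 in a fit of only the 6 libraries compared, 2611 with array weights, 1694 with unadjusted p and 36 at an absolute log2 fold change above 2. Alternatives chosen after seeing the data gave 639 without the uninjured controls and 670 in the 6 libraries with median-of-ratios scaling. The control count (138) became 5 in a fit of only its own 6 libraries, 721 with array weights and 817 with unadjusted p. The count of genes differing between injuries (4) became 7 with quantile normalization, 1799 with array weights and 989 with unadjusted p. Leaving out 1 library gave 8 to 462 calls under the inhibitor, 85 to 320 in control and 1 to 10 for the difference. The cause of these shifts was not tested. TPM holds no depth, so what sequencing depth limits cannot be given. No called gene changed sign in any alternative run. Of the 64 genes, 49 to 64 kept their call under the other pseudocounts, filters and variance models, and 32 with quantile normalization.

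Deviations of same-numbered inhibitor libraries (5, 6 and 7) correlated at -0.23, -0.24 and -0.02, and those of differently numbered ones at -0.10 to 0.25. These values show no pairing, but 3 libraries a group are too few to tell whether same-numbered ones share a batch. The control groups share 2 numbers, 1 and 5, at 0.51 and 0.27, above the -0.42 to 0.23 of the other control pairs. Only 2 shared numbers are too few to call them paired. With the replicate block the counts in all 12 libraries were 1514 under the inhibitor (1255 higher, 259 lower) and 928 in control (407 higher, 521 lower, so that lower calls prevailed), and the count was 0 in the 6 libraries under the inhibitor, where the lowest limma adjusted p was 0.114 and 3988 genes had an unadjusted p under 0.05. In the fit of 12 libraries uninjured control S2, whose title has no number, formed a block of its own. It therefore added nothing to the estimates of that fit. Leaving S2 out without a block gave 411 calls under the inhibitor and 320 in control.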

Other observations

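None of the members of 10 further lists was called under the inhibitor. At an unadjusted p under 0.05, 0 to 6 members of a list were higher and 0 to 4 lower (all genes 14.6% and 3.07%). Medians of log2 fold change (4 dpi over uninjured) were 0.33 for 25 genes of the unfolded protein response, 0.38 for 28 FGF ligands and feedback genes, 0.49 for 28 genes of TGF-beta and BMP signaling and 0.54 for 26 endothelial genes. They were 0.54 for 21 genes of microRNA processing and silencing, 0.11 for 29 genes of fibroblasts, meninges and cartilage, and 0.03 for 35 proteasome genes. The medians of the last 2 lists became -0.15 and -0.23 after scaling. Medians below 0 were those of 26 genes of glycolysis and hypoxia at -0.11, 27 genes of nerve growth at -0.07 and 10 mitochondrially encoded genes at -0.34, against 1.41 for these 10 genes in control cords. Summed TPM of mitochondrially encoded genes were 44839 to 57728 at 4 dpi and 32477 to 56412.5 without injury under the inhibitor. In control cords they were 23695 to 35361 at 4 dpi and 21039 to 29480 without injury. These sums overlapped under both treatments, so the list medians do not describe them.

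LEP stood out among the signals for its levels across all 4 groups, with 31.0, 36.2 and 43.8 TPM in 4 dpi inhibitor and 0.231, 0.986 and 1.05 TPM in uninjured inhibitor cords, against 31.2, 10.1 and 18.7 TPM in 4 dpi control and 0, 7.11 and 0 TPM in uninjured control cords. It was called under the inhibitor but not in control (limma adjusted p = 0.0504), where uninjured library S2 lay apart, and the difference between the injury changes did not pass (limma adjusted p = 0.753).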
